A study of Mus musculus with 6 samples.

Results

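The genes described here carry the metabolism of arginine to nitric oxide and to the polyamines in mouse bone marrow derived dendritic cells treated with calcium hydroxide nanoparticles. They are 8 genes, chosen by name from the 23398 genes of the deposited table: Nos2 and Gch1 for nitric oxide synthesis and its cofactor, Slc7a2 and Ass1 for arginine import and citrulline recycling, Arg1 and Arg2 for the arginases, and Odc1 and Sat1 for the polyamines. The cells were cultured from mouse bone marrow in DMEM with serum and antibiotics and received either vehicle or Ca(OH)2 nanoparticles, with RNA taken after 12 hours and 3 RNA sequencing libraries per group. The labels give no strain, age, nanoparticle dose or vehicle composition, and they do not say whether the libraries of a group came from separate mice or cultures, so p-values measure only the spread between these libraries, which may be technical. The design compares the nanoparticle libraries with the vehicle libraries.

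Arginine is a shared substrate of competing enzymes. The inducible nitric oxide synthase turns it into nitric oxide and citrulline, with tetrahydrobiopterin as a cofactor, and citrulline can be rebuilt into arginine. The arginases cut it to ornithine and urea, and ornithine is the entry to the polyamines putrescine, spermidine and spermine. In macrophages and dendritic cells, Nos2 is a known marker of activation by microbial and interferon signals, and Arg1 of activation by type 2 cytokines.

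A promoter is shown for Gch1, the gene of tetrahydrobiopterin synthesis, because it had the lowest adjusted p of the 8 genes and the RefSeq table has its sequence. That table (GRCm38.p6) holds upstream sequences of 4 of the 8 genes, Gch1, Ass1, Odc1 and Sat1. The 250 bases before the Gch1 start, chr14:47189414-47189663 on the minus strand, are printed 5′ to 3′ with capitals for GC boxes (GGGCGG) and a CCAAT box.

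Gch1: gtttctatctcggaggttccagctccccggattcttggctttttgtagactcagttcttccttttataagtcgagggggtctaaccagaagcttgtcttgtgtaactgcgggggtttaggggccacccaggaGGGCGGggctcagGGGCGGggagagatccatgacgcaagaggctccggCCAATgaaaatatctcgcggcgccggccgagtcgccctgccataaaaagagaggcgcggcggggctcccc

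Both strands were searched for 5 motifs. CCAAT occurred in 33.8% of the 32851 upstream sequences of that length in the table, and among the 4 genes only in Gch1, where it lies 70 to 66 bases before the start. GGGCGG occurred in 32.7% of all sequences and in all 4 of these genes. The E-box CACGTG occurred in 6.02% of all sequences and, of the 4, in Ass1 alone. No match was found in the 4 windows for a kappaB motif (GGG, any 2 bases, TTTCC, in 1.41% of all sequences) or an interferon response element (GAAA, any 2 bases, GAAA, in 2.98%), which says only that these letters are not in these windows.

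Levels are in FPKM, fragments per kilobase of exon relative to a library scale set by the authors, so levels of different genes can be set side by side. The values turn into whole reads for each of the 48 combinations of gene and library, and the reads behind a value are given where they are few. Genes whose FPKM became whole reads in all libraries hold 16022246 to 20202838 reads per library. Nanoparticle library 1 stood apart from libraries 2 and 3: across the 10682 tested genes, the correlation of log2(FPKM + 1) was 0.990 between libraries 2 and 3, and 0.942 and 0.928 between these and library 1, against 0.993 to 0.994 among the vehicle libraries. The fits of the 8 genes are therefore also given without it. All 3550 genes called from the 6 libraries kept their direction and call when library 1 was left out. That fit called 6923 genes, so a call kept in it is not by itself firm. Leaving out any other single library kept 2140 to 3030 of the 3550 calls. The 25 genes of other lists that the naming rule chose are among those 3550. They kept theirs without library 1, though some lost them in other settings.

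Nos2, the inducible nitric oxide synthase (ENSMUSG00000020826, protein coding, plus strand of chromosome 11, 78920787 to 78960254 on GRCm38), was near silent in vehicle and abundant with nanoparticles. It had 0.0910, 0.137 and 0.0760 FPKM in vehicle libraries 1 to 3, which rest on 8, 12 and 7 reads. With nanoparticles it had 530 FPKM in library 1, 45.0 in library 2 and 30.1 in library 3. The groups lay far apart, and library 1 was 14.1-fold above the mean of the other nanoparticle libraries. The mean rose from 0.101 ± 0.0319 to 202 ± 284 FPKM (SD, n = 3 each), so the spread of the treated group was larger than its mean. On the log2(FPKM + 1) scale the change was 6.37 (SE 1.02, limma adjusted p = 0.0045), place 15 among all fitted increases. Without nanoparticle library 1 the change was 5.10 (limma adjusted p = 2.0e-06), and the ratio of mean FPKM was 370 in place of 1989. This log scale understates the change of a gene so low in vehicle.

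Gch1, GTP cyclohydrolase 1, which starts tetrahydrobiopterin synthesis (ENSMUSG00000037580, protein coding, minus strand of chromosome 14, 47153895 to 47189413), rose in a more even way. Vehicle libraries 1 to 3 held 4.97, 5.92 and 5.78 FPKM and nanoparticle libraries 1 to 3 held 33.4, 38.9 and 43.0 FPKM. All treated libraries exceeded all vehicle libraries, and library 1 was the lowest of the treated ones. The ratio of means was 6.92, and the log2 change was 2.58 (SE 0.129, limma adjusted p = 8.6e-05). The change was 2.68 (limma adjusted p = 2.3e-06) and the ratio 7.37 when nanoparticle library 1 was left out. In vehicle the level of Gch1 was far above that of Nos2, with 0.0131 to 0.0232 units of Nos2 FPKM per unit of Gch1 FPKM. With nanoparticles this ratio was 15.9 in library 1, 1.15 in library 2 and 0.70 in library 3.

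Slc7a2, the cationic amino acid transporter that carries arginine into the cell (ENSMUSG00000031596, protein coding, plus strand of chromosome 8, 40862396 to 40922308), also rose. It had 22.7, 26.3 and 26.6 FPKM in vehicle libraries 1 to 3 and 544, 251 and 213 FPKM in nanoparticle libraries 1 to 3. Library 1 was again the highest, 2.34-fold above the mean of the others, and the groups did not overlap. The log2 change was 3.56 (SE 0.349, limma adjusted p = 7.3e-04), and 3.15 (limma adjusted p = 2.0e-06) without nanoparticle library 1. The exons of Slc7a2 share 635 of their 9135 bases with the noncoding gene Gm26584 on the other strand, which was at 1.45 FPKM or less in every library.

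Ass1, argininosuccinate synthetase, which rebuilds arginine from citrulline together with Asl (ENSMUSG00000076441, protein coding, plus strand of chromosome 2, 31470207 to 31520672), was the most abundant of the 8 genes on average in both groups. It had 252, 263 and 268 FPKM in vehicle libraries 1 to 3, and 344, 813 and 887 FPKM in nanoparticle libraries 1 to 3. Here library 1 was the lowest treated library, with 0.405 of the mean of the others, though still above all vehicle libraries. The log2 change was 1.27 (SE 0.365, limma adjusted p = 0.040). This call is not firm: without nanoparticle library 1 the change was 1.70 (limma adjusted p = 2.9e-06), and leaving out any 1 of the other 5 libraries gave adjusted p-values of 0.098 to 0.122. The call was also lost with equal sums of FPKM in all libraries (log2 change 0.80, limma adjusted p = 0.063), with quantile normalization (0.58, adjusted p = 0.181) and with no filter (adjusted p = 0.095).

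**Figure D1:**
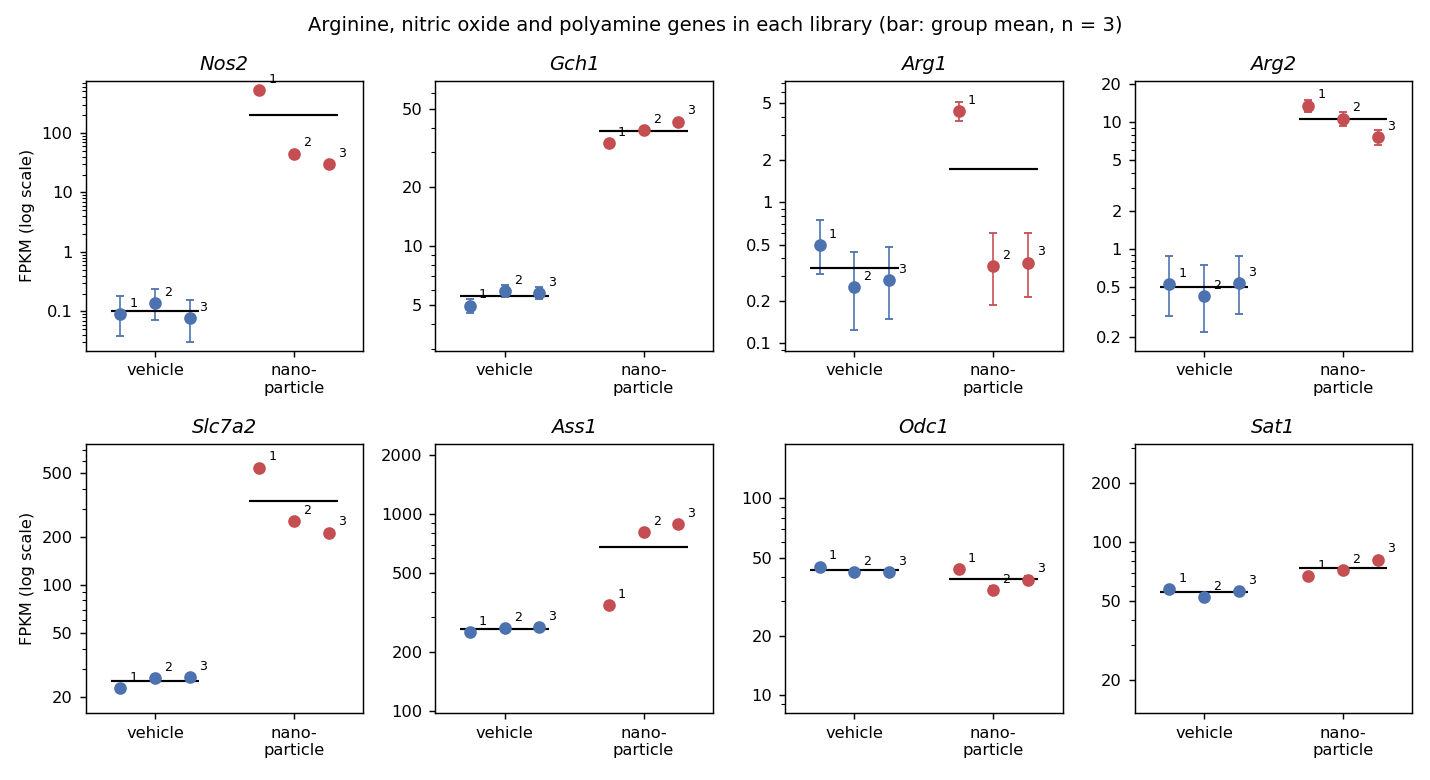
FPKM of the 8 genes (log scale, 1 panel per gene) in the vehicle and nanoparticle libraries. Points are libraries, numbered 1 to 3, whiskers are 95% exact Poisson intervals of the reads behind each value, and bars are group means; nanoparticle library 1 is the highest treated library for Nos2, Arg1, Arg2, Slc7a2 and Odc1 and the lowest for Gch1, Ass1 and Sat1.

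The arginases differed from each other. Arg1, the cytosolic arginase (ENSMUSG00000019987, protein coding, minus strand of chromosome 10, 24915221 to 24927484), had 0.496, 0.249 and 0.279 FPKM in vehicle libraries 1 to 3, from 22, 11 and 13 reads. In the treated libraries it had 4.398 FPKM from 160 reads in library 1, but 0.353 and 0.373 FPKM from 13 and 16 reads in libraries 2 and 3. The groups overlapped, since libraries 2 and 3 lay within the vehicle range and only library 1 lay above it, by 12.9-fold over the vehicle mean. The exact Poisson 95% interval of library 1, 3.74 to 5.13 FPKM, does not meet that of any other library, and such intervals cover no more than counting error, because PCR copies cannot be separated here. Arg1 did not reach 1 FPKM in 3 libraries and so was not among the tested genes. In the fit without that filter its log2 change was 0.69 (limma adjusted p = 0.542), where 14.4% of all 23398 genes passed, 6.99% as higher.

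Arg2, the mitochondrial arginase (ENSMUSG00000021125, protein coding, plus strand of chromosome 12, 79130777 to 79156301), was also low in vehicle, at 0.527, 0.424 and 0.537 FPKM from 15, 12 and 16 reads. It was higher in every treated library, at 13.6, 10.7 and 7.63 FPKM in libraries 1 to 3, from 316, 253 and 210 reads. The ratio of means was 21.4, or 18.5 without nanoparticle library 1, and the log2 change was 2.93 (SE 0.194, limma adjusted p = 2.0e-04), or 2.75 (limma adjusted p = 1.4e-05) without that library. The exons of Arg2 share 285 of 1428 bases with Vti1b on the other strand, which was at 52.9 to 53.7 FPKM in vehicle and 46.7 to 82.8 FPKM with nanoparticles. Counting by strand is not stated, so a part of the few reads of Arg2 cannot be told apart from those of Vti1b. The FPKM of Arg2 was 1.06 to 1.92 times that of Arg1 in vehicle, 3.08 times in nanoparticle library 1, and 30.4 and 20.5 times in libraries 2 and 3.

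Of the polyamine genes, neither showed a large change. Odc1, ornithine decarboxylase, which makes putrescine (ENSMUSG00000011179, protein coding, plus strand of chromosome 12, 17544794 to 17551505), had 45.0, 42.1 and 42.1 FPKM in vehicle libraries 1 to 3 and 43.7, 34.3 and 38.7 FPKM in nanoparticle libraries 1 to 3. The groups overlapped through nanoparticle library 1, and the log2 change of -0.15 (SE 0.121) did not pass (limma adjusted p = 0.392). It passed as lower without that library (-0.24, limma adjusted p = 0.024), with equal sums of FPKM (-0.61, adjusted p = 0.020) and with quantile normalization (-0.51, adjusted p = 0.038).

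Sat1, the acetyltransferase that marks spermidine and spermine for breakdown or export (ENSMUSG00000025283, protein coding, minus strand of chromosome X, 155213132 to 155216449), had 57.6, 52.7 and 56.1 FPKM in vehicle libraries 1 to 3 and 67.0, 72.4 and 81.5 FPKM in nanoparticle libraries 1 to 3. All treated libraries were above all vehicle libraries, by a ratio of means of 1.33. The log2 change of 0.40 (SE 0.117) passed narrowly (limma adjusted p = 0.042). Its direction depends on the scaling, with -0.07 under equal sums of FPKM (limma adjusted p = 0.576) and -0.01 under quantile normalization (adjusted p = 0.925). Leaving out nanoparticle library 1 gave 0.46 (limma adjusted p = 0.0015), and leaving out any 1 of the other 5 libraries gave adjusted p-values of 0.092 to 0.171. Per library, Odc1 had 0.750 to 0.799 of the FPKM of Sat1 in vehicle, and 0.653, 0.474 and 0.475 of it in nanoparticle libraries 1 to 3.

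**Figure D2:**
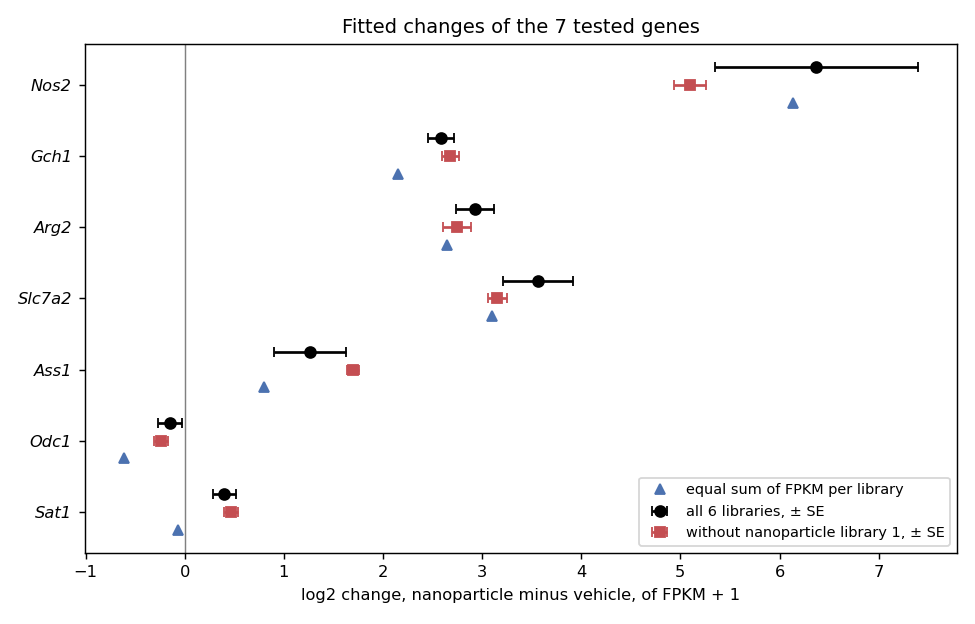
Log2 change of FPKM + 1, nanoparticle minus vehicle, for the 7 tested genes, from all 6 libraries (black, ± SE), without nanoparticle library 1 (red, ± SE) and with every library scaled to the same sum of FPKM (blue triangles). Nos2, Slc7a2, Arg2 and Gch1 stay above 2 in all 3 settings, while Sat1 lies at 0.40, 0.46 and -0.07.

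Of the 7 genes tested, 6 were higher past the threshold and 0 were lower, with Odc1 the exception. Over all 10682 tested genes, 33.2% passed, with 17.0% of the tested genes higher and 16.2% lower. Without nanoparticle library 1, 7 passed, against 64.8% of all genes (34.3% higher), and these were the same 6 higher genes with Odc1 lower. The groups did not overlap in 6 of the 8 genes, where 52.1% of the tested genes had groups that did not overlap. A called increase of at least 2.5 on the log2 scale, a bound set with the values known, was seen for Nos2, Slc7a2, Arg2 and Gch1, and for 1.87% of the tested genes. These 4 passed in all 13 alternative settings, with the highest adjusted p at 0.039 for Nos2. Ass1 passed in 5 of the 13 and Sat1 in 4. Scaling all libraries to equal sums of FPKM put the median over the 10682 genes at -0.38 on the log2 scale, with 881 genes higher and 4306 lower (17.0% of calls higher, against 51.2%).

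In vehicle, the order of mean levels was Ass1 (261 FPKM), Sat1 (55.5), Odc1 (43.1), Slc7a2 (25.2), Gch1 (5.56), Arg2 (0.496), Arg1 (0.341) and Nos2 (0.101). Neighbours in this order had ranges that did not overlap, except Arg2 and Arg1, of which Arg2 was the higher in each library. With nanoparticles the order of means was Ass1 (681 FPKM), Slc7a2 (336), Nos2 (202), Sat1 (73.6), Odc1 (38.9), Gch1 (38.4), Arg2 (10.6) and Arg1 (1.71). The ranges of Ass1 and Slc7a2, of Nos2 and Sat1, and of Odc1 and Gch1 overlapped, and which was the higher differed between libraries. The ranges of Slc7a2 and Nos2 also overlapped, but Slc7a2 was the higher in each of the 3 libraries. By library the picture was uneven: Slc7a2 and Nos2 ranked 96 and 97 among all genes in nanoparticle library 1, where Ass1 ranked 150. In libraries 2 and 3 Ass1 ranked 68 and 70, and Nos2 ranked 1190 and 1771.

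The 8 genes split by how nanoparticle library 1 stood to the others. On log2(FPKM + 1), it was over 2-fold from the mean of libraries 2 and 3 for 4 of the 8, where 11.8% of all tested genes were (4.48% above and 7.28% below). Nos2 was higher there by 3.81, the second largest such excess among the tested genes, followed by Arg1 at 1.99 and Slc7a2 at 1.23. Ass1 was lower there by a difference of -1.30. The differences of Arg2 (0.53), Odc1 (0.26), Sat1 (-0.19) and Gch1 (-0.29) were smaller. Nos2 had 121 times the FPKM of Arg1 in library 1, and 127 and 80.7 times in libraries 2 and 3, and library 1 exceeded the mean of the others by 14.1-fold for Nos2 and 12.1-fold for Arg1. No label separates this library from the others, and what sets it apart was not tested.

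**Figure D3:**
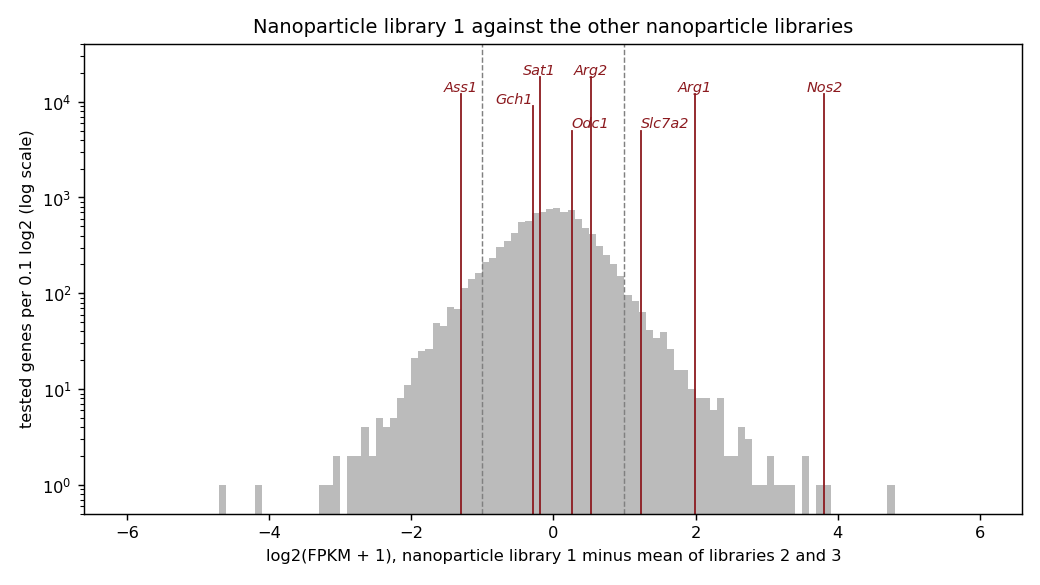
Difference in log2(FPKM + 1) between nanoparticle library 1 and the mean of libraries 2 and 3. Grey bars count the 10682 tested genes on a log scale, dashed lines mark 2-fold, and red lines mark the 8 genes, with Nos2 at 3.81 and Ass1 at -1.30 at the ends.

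The other genes of arginine, nitric oxide and polyamine metabolism moved in both directions. Of 68 further genes in the table, in 9 lists, 41 were tested, 5 were higher and 8 lower, or 31.7% of those tested, against 33.2% of all genes. Their median log2 change was -0.12, and that of all tested genes was -0.001. Without nanoparticle library 1, 26 of the 41 passed, 14 higher and 12 lower, where 64.8% of all tested genes passed (34.3% higher).

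Around nitric oxide synthesis, the constitutive synthase genes Nos1 and Nos3 were at 0.0879 FPKM or less in every library. Neither Nosip nor Nostrin, which encode partners of nitric oxide synthases, passed, and these were the tested genes of that list. The remaining cofactor genes gave 0 higher and 1 lower of 5 tested (20% called, against 33.2% of all tested genes). Pts and Spr, which complete tetrahydrobiopterin after Gch1, had log2 changes of -0.22 (limma adjusted p = 0.189) and 0.05 (limma adjusted p = 0.861), and Gchfr, the feedback regulator of Gch1, was at 0.483 FPKM or less in every library. Thioredoxin, Txn1, which can reduce nitrosylated proteins, rose from 244 ± 3.44 to 618 ± 157 FPKM (mean ± SD over 3 libraries, a difference of 1.30 on the log2 scale, limma adjusted p = 0.0045). The subunits of the nitric oxide receptor, Gucy1a1, Gucy1a2 and Gucy1b1, were at 0.0156 FPKM or less throughout.

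Among arginine carriers, 1 of 6 tested rose and 1 fell (33.3% called, near the 33.2% of all tested genes). Slc3a2, the heavy chain that pairs with several amino acid transporters, rose from 79.9 ± 1.62 to 263 ± 13.8 FPKM (mean ± SD over 3 libraries, a difference of 1.71 on the log2 scale, limma adjusted p = 1.6e-04). Slc7a1, the housekeeping relative of Slc7a2, had 2.85 to 3.54 FPKM in vehicle and 2.09 to 3.54 FPKM with nanoparticles (limma adjusted p = 0.365), and the y+L carriers Slc7a7 (adjusted p = 0.213) and Slc7a6 (adjusted p = 0.413) did not pass either. The lower gene was Slc25a15, the mitochondrial ornithine carrier, at 1.37 to 1.43 FPKM in vehicle and 0.547 to 0.772 with nanoparticles (named after its values were seen).

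Beside Ass1, its partner Asl, argininosuccinate lyase, had 7.67 to 8.66 FPKM in vehicle and 8.95 to 13.5 with nanoparticles, which did not overlap but did not pass (limma adjusted p = 0.065). Asl passed as higher without nanoparticle library 1 (log2 change 0.65, limma adjusted p = 4.0e-04). Of the 5 tested genes of the urea cycle and creatine list, 1 was higher and 2 lower (60% called, against 33.2% of all tested genes). The higher gene was Nags (limma adjusted p = 0.045, named after its values were seen). No gene of that list passed without vehicle library 1, 2 or 3. Otc and Cps1, the liver enzymes of the urea cycle, were at 0.0187 FPKM or less. The pair that makes creatine from arginine fell, with Gatm from 10.2 ± 0.612 to 7.23 ± 0.764 FPKM (limma adjusted p = 0.022) and Gamt from 8.77 ± 0.438 to 4.08 ± 1.79 FPKM (SD, n = 3 each, limma adjusted p = 0.033). Of the genes that link ornithine with proline, 2 of 6 tested were lower and 0 higher (33.3% called, against 33.2% of all tested genes). Aldh18a1, which makes the common precursor, went from 6.29 ± 0.679 to 3.09 ± 0.708 FPKM (limma adjusted p = 0.0070) and Oat, ornithine aminotransferase, from 40.5 ± 0.675 to 27.3 ± 4.71 FPKM (SD, n = 3 each, limma adjusted p = 0.027). The calls of Gatm and Oat were lost with the replicate number as a block (adjusted p = 0.0796 and 0.0590), and that of Gamt with no filter (adjusted p = 0.0775). All 3 of these calls were lost when vehicle library 1, 2 or 3 was left out (limma adjusted p = 0.0675 to 0.108), those of Gatm and Gamt without nanoparticle library 3 (0.0542 and 0.0504) and that of Oat without nanoparticle library 2 (0.0557).

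Downstream of Odc1, 0 of the 5 tested polyamine synthesis genes passed in limma, where 33.2% of all tested genes passed. Spermidine synthase, Srm, had 24.4 to 28.1 FPKM in vehicle and 6.55, 17.5 and 20.7 FPKM in nanoparticle libraries 1 to 3 (limma adjusted p = 0.115). Its groups did not overlap, and without library 1 it passed as lower (log2 change -0.46, limma adjusted p = 0.0050). Sms, spermine synthase, and Amd1, which supplies the aminopropyl groups, had adjusted p-values of 0.939 and 0.1995 in limma. Without library 1, Sms passed as higher (log2 change 0.29, limma adjusted p = 0.0094). In that fit 1 gene of this list was thus higher and 1 lower, where 64.8% of all tested genes passed. In breakdown and transport, 1 of 6 tested genes rose and 2 fell (50% called, against 33.2% of all tested genes). Smox, spermine oxidase, rose from 16.1 ± 0.829 to 32.8 ± 11.4 FPKM (mean ± SD over 3 libraries, a difference of 0.93 on the log2 scale, limma adjusted p = 0.023), a call lost with equal sums of FPKM (0.48, adjusted p = 0.201), with quantile normalization (0.69, adjusted p = 0.0882) with no filter (adjusted p = 0.0529) and without vehicle library 1, 2 or 3 (adjusted p = 0.0713 to 0.0868). Atp13a3, an ATPase linked to polyamine uptake, fell from 16.2 ± 0.260 to 7.24 ± 1.12 FPKM (mean ± SD over 3 libraries, a difference of -1.07 on the log2 scale, limma adjusted p = 0.0013). The other lower gene was Paox, a polyamine oxidase (named after its values were seen). It had 1.14 to 1.39 FPKM in vehicle and 0.437 to 0.788 with nanoparticles (limma adjusted p = 0.023). Without vehicle library 1, 2 or 3, Atp13a3 alone of this list passed. The antizyme genes Oaz1 and Oaz2, which mark ornithine decarboxylase for destruction, had adjusted p-values of 0.600 and 0.995 in limma. Without library 1, Oaz1 passed as higher (log2 change 0.59, limma adjusted p = 5.2e-04) and Oaz2 did not (0.09, adjusted p = 0.591). Dhps, which uses spermidine to modify Eif5a, rose from 9.21 ± 0.412 to 19.0 ± 2.67 FPKM (mean ± SD over 3 libraries, a difference of 0.96 on the log2 scale, limma adjusted p = 0.0021), and it shares 128 exon bases with Wdr83 on the other strand.

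Among 14 transcription factors known to act on Nos2 or Arg1 in other settings, 8 rose and 3 fell past the threshold. Of all tested genes, 17.0% were higher and 16.2% lower. Irf1, which acts in interferon signalling, rose from 5.58 ± 0.0736 to 35.4 ± 2.75 FPKM (SD, n = 3 each, limma adjusted p = 3.9e-05), and it shares exon bases with Gm17334 on the other strand. Klf4 fell from 17.9 ± 0.487 to 2.55 ± 0.834 FPKM and Myc from 16.0 ± 0.775 to 4.14 ± 1.77 FPKM (SD, n = 3 each, limma adjusted p = 2.3e-04 and 0.0036). Stat6, the mediator of interleukin 4 signals, had 42.8 to 44.0 FPKM in vehicle and 38.2 to 55.3 with nanoparticles (limma adjusted p = 0.757). Hif1a, the hypoxia factor (named after its values were seen), was at 20.3 to 21.4 FPKM in vehicle, and nanoparticle library 1 at 94.2 FPKM was above library 2 (39.7) and library 3 (38.9).

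Genes that are often measured with Arg1 as signs of alternative activation went both ways, with 3 higher and 2 lower of 8 tested, against 17.0% higher and 16.2% lower of all tested genes. Ccl22, a chemokine, rose from 154 ± 37.6 to 1535 ± 430 FPKM and Tgm2, transglutaminase 2, from 20.8 ± 3.29 to 143 ± 119 FPKM (SD, n = 3 each, limma adjusted p = 5.2e-04 and 0.014). The call of Tgm2 was lost without vehicle library 2 or 3 (limma adjusted p = 0.0546 and 0.0554), and its exons overlap Rprd1b and Gm20412 on the other strand. The lectin receptor genes Mrc1 and Mgl2 fell, from 56.3 ± 5.75 to 7.77 ± 4.08 FPKM and from 232 ± 17.2 to 65.3 ± 26.6 FPKM (SD, n = 3 each, limma adjusted p = 0.0027 and 0.0064). Chil3 had a limma adjusted p of 0.412, and Retnla was at 0.605 FPKM or less in every library.

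**Figure D4:**
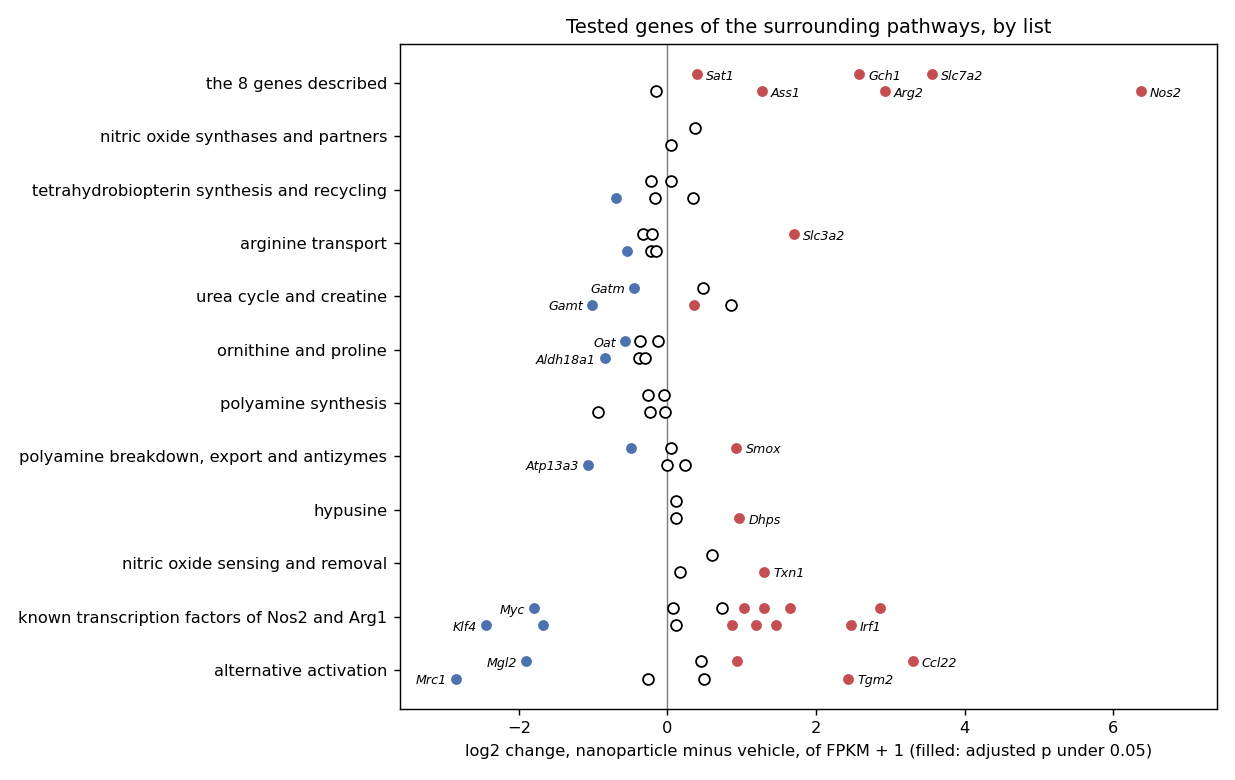
Log2 change of FPKM + 1, nanoparticle minus vehicle, of each tested gene, with 1 row per gene list. Filled points passed an adjusted p of 0.05 (red higher, blue lower) and open points did not; the row of the 8 genes reaches 6.37 for Nos2, while the 5 polyamine synthesis genes are all open.

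Likeness to each of the 7 tested genes was measured as the Euclidean distance between centred log2(FPKM + 1) values over the 6 libraries, and the 2 nearest of all tested genes are named. Nearest to Nos2 were Ifit1bl1 (distance 1.25) and Ifi205 (1.28), at 305 and 250 FPKM in nanoparticle library 1 and at 25.8 to 45.3 FPKM in the other treated libraries. Slc7a2 was nearest to Procr (0.332) and Casp4 (0.339), and both of those were highest in nanoparticle library 1. For Gch1 these were Pnp2 (0.219) and Psme2 (0.235), and for Arg2 they were Susd2 (0.236) and Zc3h12a (0.292). Ass1 was nearest to H1fx (0.295) and to Prdx1 (0.305), a peroxidase gene lowest among treated libraries in library 1 (2066 FPKM, against 4592 and 5152). Odc1 was nearest to Rbak (0.0747) and Fbxw8 (0.0905), and Sat1 to Max (0.0637) and Zc3h15 (0.0779).

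In bulk RNA, fewer cells of a type and less RNA per cell cannot be told apart. The label of dendritic cells was checked against markers. Itgax, which encodes CD11c, had 442 to 456 FPKM in vehicle and 248 to 398 with nanoparticles, and Zbtb46 had 3.66 to 4.15 and 1.73 to 2.76 FPKM, while Flt3 was near 0 at 0.0793 FPKM or less. The summed dendritic cell list was 508 to 514 FPKM in vehicle and 325 to 454 FPKM with nanoparticles, and most of that sum is Itgax. Of its 7 tested genes, 1 was higher and 4 lower (71.4% called, against 33.2% of all tested genes). Cd209a fell from 5.69 ± 0.523 to 0.0254 ± 0.0441 FPKM and Clec10a from 6.92 ± 1.12 to 0.786 ± 0.267 FPKM (SD, n = 3 each, limma adjusted p = 3.7e-05 and 3.0e-04). The reads of Cd209a were 163, 195 and 188 in vehicle and 0, 2 and 0 with nanoparticles. The higher gene was Ly75, which encodes CD205, at 3.60 ± 0.341 and then 17.9 ± 6.94 FPKM (SD, n = 3 each, limma adjusted p = 0.0018). Xcr1, too low to be tested, had 8 to 16 reads in vehicle and 61 to 161 with nanoparticles. Dpp4, also too low to be tested, had 114 to 143 and then 32 to 85 reads. Clec9a was called lower, at 6.59 ± 0.226 and then 3.08 ± 1.55 FPKM (SD, n = 3 each, limma adjusted p = 0.041).

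Macrophage markers were also present, with a summed 1102 to 1229 FPKM in vehicle and 1036 to 1235 FPKM with nanoparticles. Of the 10 tested, 3 were higher and 4 lower (70% called, against 33.2% of all tested genes). The higher genes were Adgre1, which encodes F4/80, at 66.1 ± 2.81 and then 183 ± 80.3 FPKM, Fcgr1 at 33.7 ± 2.31 and then 68.7 ± 14.1 FPKM, and Cd68 at 299 ± 5.10 and then 483 ± 91.9 FPKM (SD, n = 3 each, limma adjusted p = 0.012, 0.0056 and 0.024). C1qa, a complement gene, fell from 139 ± 24.9 to 41.2 ± 15.2 FPKM (SD, n = 3 each, limma adjusted p = 0.0048). The neutrophil list summed to 276 to 309 FPKM in vehicle and 242 to 340 FPKM with nanoparticles. Of its 5 tested genes, 2 were higher and 1 lower (60% called, against 33.2% of all tested genes). The higher ones were Lcn2, at 0.234 ± 0.102 and then 50.4 ± 3.45 FPKM, and S100a8, at 34.9 ± 1.32 and then 83.1 ± 30.03 FPKM (SD, n = 3 each, limma adjusted p = 5.8e-06 and 0.022). The call of S100a8 was lost with no filter (limma adjusted p = 0.0514), without vehicle library 1, 2 or 3 (0.0715 to 0.0797) and without nanoparticle library 2 (0.0754). The lower gene was Mmp8, most of the sum, at 230 to 259 FPKM in vehicle and 129 to 133 with nanoparticles (limma adjusted p = 0.0017). The primary granule genes Mpo and Elane were at 0.307 FPKM or less. The granule genes Ngp and Camp, and S100a9, were low in nanoparticle library 1 and higher in libraries 2 and 3. Ngp had 6 to 23 reads in vehicle and 1, 87 and 76 with nanoparticles. Camp had 0 to 3 and then 3, 23 and 29 reads, and S100a9 had 10 to 18 and then 3, 114 and 103 reads. Other genes of the list went differently. Ltf had 3, 16 and 15 reads in vehicle and 0, 18 and 14 with nanoparticles, and Cxcr2 had 24, 46 and 51 and then 1, 7 and 0. Lcn2 was level over nanoparticle libraries 1 to 3, at 52.3, 46.4 and 52.5 FPKM. Mmp9 had 9.41 to 10.1 FPKM in vehicle and 9.33, 39.5 and 34.5 FPKM with nanoparticles, and neither it nor S100a9 passed (limma adjusted p = 0.117 and 0.246), though both passed as higher without library 1 (6.0e-06 and 4.0e-05). Mast cell, basophil and eosinophil markers summed to 12.4 to 13.5 FPKM in vehicle and 15.3 to 26.9 FPKM with nanoparticles. Of the 4 tested, 1 was higher (Hdc) and 2 lower (Siglecf and Gata2), or 75% called, against 33.2% of all tested genes. In nanoparticle library 1, Hdc alone had 24.1 FPKM. Prg2, too low to be tested, had 0 to 3 reads in vehicle and 0, 39 and 25 with nanoparticles. Epx, also untested, had 0 reads in vehicle and then 0, 17 and 5. Markers of lymphocytes summed to at most 0.622 FPKM in any library. Fibroblast markers summed to 0.0401 to 0.119 FPKM in vehicle and 0.923 to 3.82 FPKM with nanoparticles, the highest in library 1. Most of this was Dcn, with 0 to 2 reads in vehicle and 228, 30 and 10 with nanoparticles, and Pdgfrb, with 0 to 6 and then 115, 93 and 88 reads, while Col1a1 was at 0.00933 FPKM or less. These markers beyond the naming rule were named after their values were seen. The part of these markers in the changes of the 8 genes was not tested.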

How the data were processed

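Processing is known only in part. Per the submitters' processing notes, CASAVA, STAR 2.5, HTSeq, edgeR 3.16.5 and DESeq2 were used, with hg19 and mm10 named as builds, in no stated role or order. Per the labels' protocols, libraries were made from 1 µg of total RNA with a NEBNext Ultra II RNA kit. Strand and read length are not given in the sources used here. The authors deposited 2 tables with identical values (140388), taken here as FPKM because multiplication by the merged exon length of GENCODE M21 and 1 step per library gave whole reads (within 0.01) for 95.8% to 96.1% of the values above 0. The library steps matched median-of-ratios size factors within 0.148%, so the deposited FPKM carry a scaling that assumes most genes do not change. Reads shared between near-identical or overlapping genes were handled in a way not stated.

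The 10682 genes that reached 1 FPKM in 3 or more libraries were fitted with limma 3.58.1 in R 4.3.3 on log2(FPKM + 1), group as the single term, eBayes with trend, and Benjamini-Hochberg adjustment over all of them at 0.05, after a check on simulated data. Positions are those of M21 on GRCm38. The genes and lists were chosen with earlier results of these data known. Named beyond the 8 genes are, per pathway list, up to 4 called genes with a mean of at least 5 FPKM in the higher group and the largest changes, 2 per cell type list, and the nearest 2 genes by distance; other pathway genes and markers are given for their role. Some genes that this rule names are not reported here.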

Additional observations from a re-analysis of the deposited data

How the results depend on the processing

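The fits were repeated under 13 alternatives: a pseudocount of 0.1, no filter, equal sums of FPKM, quantile normalization, no trend, the replicate number as a block, limma-voom on the recovered reads of 10100 genes (3377 called), and each library left out in turn. Nos2, Gch1, Arg2 and Slc7a2 kept direction and call in all of them. The log2 change of Ass1 lost its call with no filter (1.27), equal sums (0.80) and quantile normalization (0.58). Odc1 gained one with equal sums (-0.61) and quantile normalization (-0.51). Sat1 lost its call with no filter (0.40) and turned with equal sums (-0.066) and quantile normalization (-0.013). With equal sums 5187 of all 10682 tested genes passed, 881 higher and 4306 lower, against 3550 in the main fit. Called genes of the lists then numbered 1 of 2 tested among nitric oxide synthases and partners and 2 of 5 for tetrahydrobiopterin. They numbered 5 of 6 for arginine transport, 5 of 6 for ornithine and proline and 4 of 5 for polyamine synthesis. With quantile normalization, where 3844 of all tested genes passed, they numbered 0 for tetrahydrobiopterin, 2 for polyamine synthesis and 1 for polyamine breakdown. With no filter 14.4% of all 23398 genes passed. The called genes then numbered 1 each for urea cycle and creatine, polyamine synthesis, polyamine breakdown and fibroblasts, and 3 for dendritic cells. The replicate block left 2785 called genes, with 1 each for urea cycle and creatine and for ornithine and proline, and the call of Sat1 was lost (0.40, limma adjusted p = 0.118). Whether the numbers pair the libraries is not stated. Deviations of same-numbered libraries correlated at 0.065, 0.113 and -0.058, which cannot decide it with 3 libraries per group. Leaving out each library gave 2141 to 6923 called genes (1114 to 3660 higher, 1027 to 3263 lower), the most without nanoparticle library 1 and the fewest without vehicle library 3. It gave log2 changes of 1.02 to 1.70 for Ass1, -0.235 to -0.065 for Odc1 and 0.32 to 0.46 for Sat1. Called genes then numbered 0 to 2 for tetrahydrobiopterin, 2 to 4 for arginine transport, 0 to 5 for urea cycle and creatine, 1 to 3 for ornithine and proline, 0 to 2 for polyamine synthesis, 1 to 4 for polyamine breakdown and 3 to 6 for dendritic cells, and 4 to 7 of the 8 genes were called. Why the calls moved was not tested. Depth limits Nos2, Arg1 and Arg2 in vehicle, where they rest on 7 to 22 reads.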

Other observations

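Among the genes of the pathway, factor and activation lists, 29 were in the table but too low to be tested, and 5 of these had groups that did not overlap, against 15.8% of the 12716 genes of the table that were not tested and had a value above 0. The share of 5 in 29 is near that background. They were noticed after the values were seen, and their values come with the fit that used no filter. Azin2, which encodes an inhibitor of antizymes, had 17, 10 and 9 reads in vehicle libraries 1 to 3 and 75, 37 and 54 reads in nanoparticle libraries 1 to 3, or 0.107 to 0.212 and 0.556 to 1.14 FPKM (log2 change 0.63, limma adjusted p = 0.030). Slc7a3, a relative of Slc7a2, had 4 to 8 and 12 to 17 reads, or 0.0506 to 0.107 and 0.194 to 0.256 FPKM (log2 change 0.19, limma adjusted p = 0.027). Slc25a29, a mitochondrial carrier of basic amino acids, had 0.155 to 0.202 FPKM in vehicle, and 0.259, 1.11 and 1.12 FPKM in nanoparticle libraries 1 to 3 (limma adjusted p = 0.150). Slc18b1, a vesicular polyamine transporter, had 21 to 28 reads in vehicle and 0, 13 and 12 reads with nanoparticles (limma adjusted p = 0.137). The fifth, Prkg1, had 6 reads or fewer in every library.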
